A study of Mus musculus with 6 samples.

Results

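Chromatin modifiers and remodelers are the enzymes and complexes that write, remove and read chemical marks on histones or move nucleosomes along DNA. Methyl groups set by methyltransferases and taken off by demethylases mark active or silent genes, and ATP-driven remodelers make DNA more or less open to transcription factors. In granulosa cells the LH surge alters the transcription of many genes within hours, as the cells set out to become luteal cells. The circRNA of these genes were chosen by gene name alone, from the prefixes of histone methyltransferases (Kmt, Mll, Setd, Nsd1, Whsc1, Ash1l), demethylases and JmjC proteins (Kdm, Jmjd), SWI/SNF and related ATPases (Smarc and 3 Arid genes), other ARID proteins, CHD remodelers, deacetylases (Hdac), bromodomain proteins (Brd) and the Asxl genes. They made up 928 of the 42381 circRNA in the count table (2.19%) and came from 79 genes. At a level of at least 100 CPM (reads scaled to a library's circRNA total) in at least 3 of 6 libraries, 33 of them, from 23 genes, were abundant, out of 1658 abundant circRNA in all.

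Mural granulosa cells form the inner lining of the ovarian follicle. They were taken from WT mice of the CF-1 strain. All mice had received 5 IU of PMSG, a gonadotropin that drives follicle growth, at 21 days of age. The 4-h post-hCG group (3 libraries) was collected 4 h after hCG, the hormone given here to stand in for the LH surge that sets off ovulation, and the 0-h group (3 libraries) was collected 46 h after PMSG alone. Per the methods, each library came from 1 mouse, and granulosa cells were released by puncturing follicles, with the cumulus-oocyte complexes removed. The replicate numbers do not pair mice across the groups.

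For every circRNA the table holds the reads across its back splice, the joint between the tail of 1 exon and the head of the same or an earlier exon. Beside it stands a linear count for the same junction. A circRNA lacks free ends, and its back splice is the only stretch that the linear RNA does not have. Back-splice reads on circRNA came to 66593 to 89982 per 4-h post-hCG library and 65994 to 91854 per 0-h library, so that 1 read was worth 10.9 to 15.2 CPM on the scale of the 100 CPM minimum. The levels given below are normalized CPM on a larger library size, all back-splice reads on junctions with a gene name, where 1 read is worth 6.13 to 8.40 before the TMM factor that evens out library composition, so that abundant circRNA can lie below 100 on it. Linear counts at the same junctions came to 5070799 to 7452634 at 4-h post-hCG and 5435467 to 6796887 at 0-h. In the check of the labels, all 9 measured ovulatory genes, among them Areg, Pgr and Tnfaip6, were higher in linear RNA at 4-h post-hCG. Of 15 granulosa markers, 9 had linear counts, with sums of 7872 to 8145 normalized CPM at 4-h post-hCG and 8010 to 10551 at 0-h. Of these 9, 1 was higher and 5 were lower at 4-h post-hCG, where 25.8% of all genes tested were called. The higher one, Inhba, was the largest part of the sums, with 4437 ± 297 at 4-h post-hCG and 2944 ± 1353 at 0-h. The lower ones were Fshr, Cyp19a1, Esr2, Hsd17b1 and Gata4. Markers of other cells were visible only where they make a circRNA, and none was called. The theca list was measured at 1 of 4 genes with sums of 91.3 to 96.4 at 4-h post-hCG and 110 to 152 at 0-h, and the stroma list at 3 of 8 genes with 59.6 to 124 at 4-h post-hCG and 98.2 to 141 at 0-h. The oocyte list (3 of 10 genes) summed to 57.3 to 76.9 at 4-h post-hCG and 43.3 to 74.9 at 0-h, the endothelial list (4 of 7) to 12.2 to 31.0 at 4-h post-hCG and 12.8 to 18.7 at 0-h, and the immune list (3 of 7) to 25.2 to 30.2 at 4-h post-hCG and 27.3 to 48.4 at 0-h. The part of these cells, and of the granulosa markers that moved, in the results below was not tested. In bulk RNA, fewer cells of a type and less RNA per cell cannot be told apart.

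Chromatin genes took 2.32%, 2.07% and 2.24% of circRNA reads in the 4-h post-hCG libraries and 2.25%, 2.24% and 2.09% in the 0-h libraries, and the groups overlapped. Most of the 10584 reads lay on few circRNA. The 33 abundant circRNA held 6313 reads (59.6%), and the 4 highest held 3527 (33.3%). At the other end, 270 of the 928 circRNA (29.1%) had 1 read in all 6 libraries together, against 30.6% of all circRNA, and 61 were read in every library. The genes with methyltransferase names (Kmt, Mll, Setd, Nsd1, Whsc1, Ash1l) took 5117 of the reads (48.3%) with 17 genes, of which 1322 reads came from Setd3, whose known substrate is actin. Demethylases and JmjC proteins took 2189 (20.7%) with 16 genes. Deacetylases took 58 reads with 8 genes, and neither they nor the 6 bromodomain genes had an abundant circRNA.

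A few back splices show how these circRNA are built: those with the highest counts (Whsc1 and Setd3), examples of circRNA that share an end within a gene (Whsc1, Asxl2, Kdm1a and Kdm2a), and Asxl1 for comparison with its relative Asxl2. Each line gives the last bases of the downstream exon in lower case and the first bases of the upstream exon, to which it is joined, in capitals. The 30 bases are read on the strand of the gene from the GRCm38 genome, the build that the submitters' processing notes name.
Whsc1 exons 3-4: ataccaaacttaaagTGTTCTAAGAACCAA
Whsc1 exons 3-10: ttaactgagcatgagTGTTCTAAGAACCAA
Setd3 exons 2-6: tataaagtcatccagTCAGAAAATGGGTAA
Asxl2 exons 2-5: ggtggaaaaggaaagGTCTTAGAAAAATAC
Asxl2 exons 2-7: tacctgccaaacctgGTCTTAGAAAAATAC
Asxl2 exons 2-8: acagactccacacaaGTCTTAGAAAAATAC
Asxl1 exons 2-4: cttttcacactcaagGTGTTAGAAAACTAC
Kdm1a exons 4-9: gccaatggacaagctGTGTGGAGGGTGCAG
Kdm1a exons 3-9: gccaatggacaagctGGCAAGCAGGAGGAC
Kdm2a exons 2-12: attgctgatgtaaagGAAGAGGAAGGCATC
Kdm2a exons 2-5: tcaaaatgtgtgtggGAAGAGGAAGGCATC

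The 3 abundant circRNA of Asxl2, a protein of the Polycomb-associated Asxl family, begin with the same exon and differ in where they close. The abundant circRNA of its relative Asxl1 also begins with exon 2, and the first 15 bases of that exon match those of Asxl2 at 13 positions. The circRNA of Kdm1a share their closing exon 9 and differ in their first exon. Across the list, 7 genes gave 2 or 3 abundant circRNA each, 17 in all, and in 6 of these genes at least 2 of them shared an end. Reads of such circRNA come from the same libraries and gene, so they are not separate observations of the gene. All 33 back splices lie between an AG before the first exon and a GT after the last exon, as do 1652 of the 1658 abundant circRNA. Since 1657 of these 1658 start and close at annotated exon ends, these letters describe the annotated exons and are no separate result.

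The circRNA with the highest level came from Whsc1, named Nsd2 in GENCODE, a histone methyltransferase of the NSD family. It spans exons 3 to 4 of 23 at chr5:33843112-33846267 on the plus strand, is 789 nt long when spliced, and holds the start codon with part of the 5′ untranslated region. It was read 305, 151 and 218 times at 4-h post-hCG, against 258, 248 and 171 times at 0-h. After normalization this was 1624 ± 458 CPM at 4-h post-hCG and 1487 ± 92.8 at 0-h (SD, n = 3 each), rank 17 among the 1658 abundant circRNA. The 4-h post-hCG libraries both exceeded and fell below all of the 0-h libraries, and the difference was not called (log2 0.13 ± 0.18 SE, edgeR adjusted p = 0.985). Setd3, whose protein methylates actin, gave the second circRNA, of exons 2 to 6 of 13 at chr12:108157754-108165172 on the minus strand, 682 nt long. Its reads were 268, 218 and 174 at 4-h post-hCG, against 215, 268 and 161 at 0-h, which gave 1584 ± 117 normalized CPM at 4-h post-hCG and 1410 ± 151 at 0-h (SD, n = 3 each) with groups that overlapped. It held 98.6% of the 1322 back-splice reads of Setd3.

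Jmjd1c, a JmjC protein related to the Kdm3 demethylases, followed with its exons 2 to 3 (279 nt) at 626 ± 5.58 normalized CPM at 4-h post-hCG and 619 ± 69.3 at 0-h. The reads were 98, 87 and 74 at 4-h post-hCG, against 110, 108 and 66 at 0-h. Nsd1, a further NSD methyltransferase, gave the longest spliced circRNA of the list, exons 3 to 5 with 2869 nt. It stood at 298, 254 and 405 normalized CPM at 4-h post-hCG, against 419, 497 and 386 at 0-h. Only the highest 4-h post-hCG library reached the range of the 0-h libraries, and the difference was not called (log2 -0.45 ± 0.29 SE, edgeR adjusted p = 0.913). For Ash1l, a SET domain methyltransferase, exons 4 to 5 gave 540, 363 and 312 normalized CPM at 4-h post-hCG, against 326, 290 and 255 at 0-h, with the lowest 4-h post-hCG value inside the 0-h range (log2 0.48 ± 0.30 SE, edgeR adjusted p = 0.895). Its other abundant circRNA overlapped between the groups, with means of 69.3 ± 34.0 at 4-h post-hCG and 81.6 ± 21.4 at 0-h for exon 2 alone, and of 54.1 ± 26.9 at 4-h post-hCG and 77.5 ± 40.2 at 0-h for exon 5 alone.

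**Figure D1:**
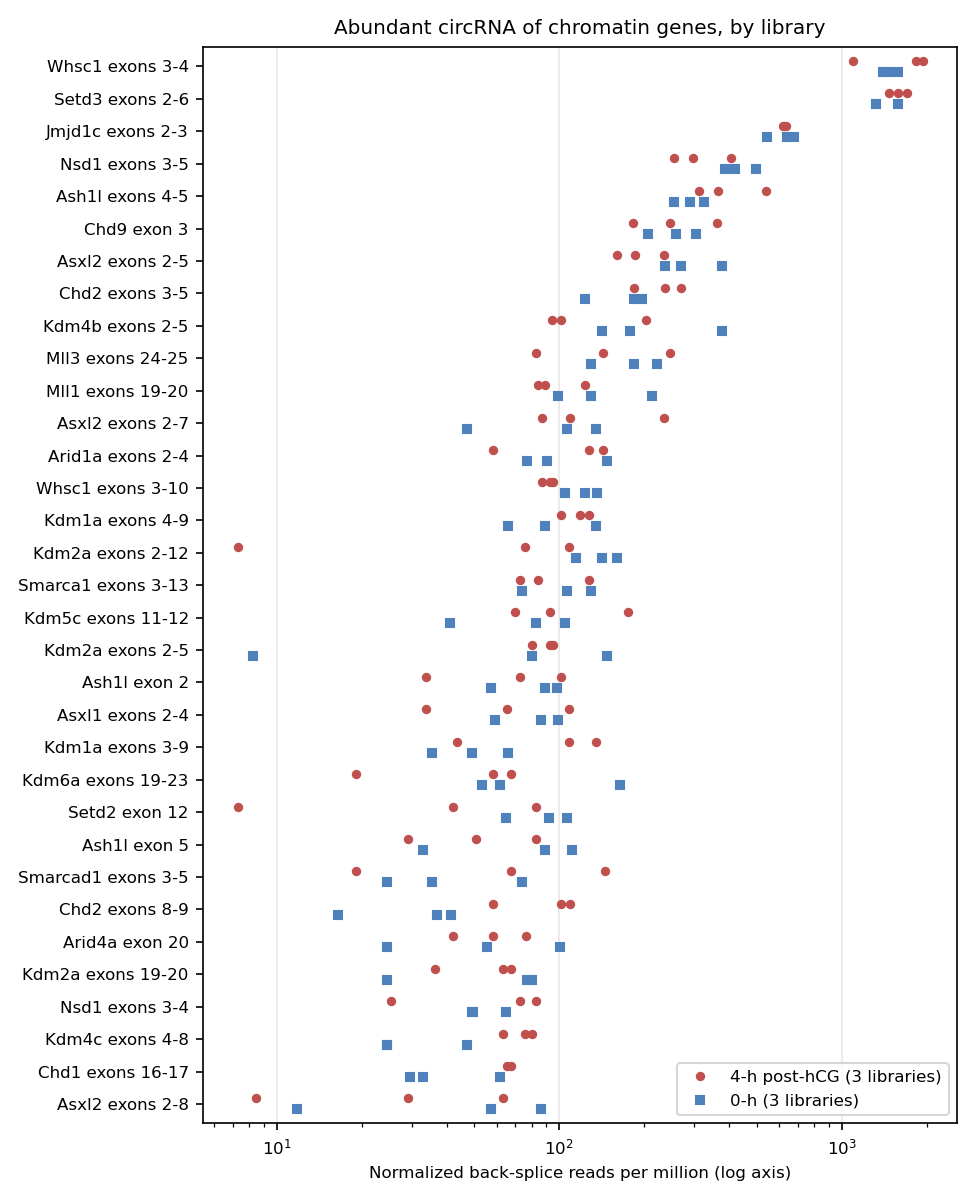
Normalized back-splice CPM on a log axis for the 33 abundant circRNA of chromatin genes, ordered by mean level, with 1 circle per 4-h post-hCG library above 1 square per 0-h library. Whsc1 and Setd3 stand above the others, and the groups overlap for 28 of the 33 circRNA. The 4-h post-hCG library in which Chd1 had no read has no mark.

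The next levels came from the remodelers Chd9 and Chd2, from Asxl2, from the demethylase Kdm4b and from Mll3 (Kmt2c), a catalytic subunit of a histone methyltransferase complex. The Chd9 circRNA is exon 3 alone, 1614 nt with the start codon, at 264 ± 91.5 normalized CPM at 4-h post-hCG and 257 ± 48.6 at 0-h. Asxl2 exons 2 to 5 were at 235, 160 and 185 at 4-h post-hCG, against 271, 237 and 378 at 0-h, so that every 4-h post-hCG library was lower. That difference was not called (log2 -0.59 ± 0.34 SE, edgeR adjusted p = 0.824). In the longer circRNA of Asxl2 the groups overlapped. Exons 2 to 7 averaged 144 ± 79.6 at 4-h post-hCG and 96.5 ± 45 at 0-h, and exons 2 to 8 averaged 33.7 ± 27.8 at 4-h post-hCG and 51.8 ± 37.5 at 0-h. Chd2 exons 3 to 5 averaged 230 ± 42.8 at 4-h post-hCG and 168 ± 39.2 at 0-h. Kdm4b exons 2 to 5 averaged 133 ± 60.3 at 4-h post-hCG and 233 ± 127 at 0-h, and Mll3 exons 24 to 25 averaged 158 ± 83.3 at 4-h post-hCG and 179 ± 46.2 at 0-h.

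The other abundant circRNA had means over the 6 libraries between 42.8 and 123 normalized CPM and overlapped between the groups except where stated below. Among them, chosen after their values were seen, Mll1 (Kmt2a) exons 19 to 20 averaged 98.9 ± 21.5 normalized CPM at 4-h post-hCG and 147 ± 59.1 at 0-h, and Kdm5c exons 11 to 12 averaged 112 ± 55.0 at 4-h post-hCG and 76.2 ± 32.3 at 0-h. Arid1a, a DNA-binding subunit of SWI/SNF, gave exons 2 to 4 with the start codon, read 20, 8 and 17 times at 4-h post-hCG, against 24, 13 and 11 times at 0-h. Asxl1 exons 2 to 4, at 195 nt the shortest of the list, averaged 69.0 ± 37.2 at 4-h post-hCG and 81.3 ± 20.2 at 0-h. The lowest libraries show how thin these counts are. Smarcad1 exons 3 to 5 were read 3, 20 and 8 times at 4-h post-hCG, against 12, 6 and 3 times at 0-h, and Chd1 exons 16 to 17 were read 0, 9 and 8 times at 4-h post-hCG, against 10, 5 and 4 times at 0-h.

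The first comparison asked whether the circRNA of chromatin genes changed within 4 h of hCG. None of the 33 abundant circRNA passed both limits for a call, an adjusted p up to 0.1 and a change of 1.5-fold or more. Among all abundant circRNA 1.21% passed, 1.09% higher and 0.121% lower (edgeR quasi-likelihood test, Benjamini-Hochberg adjustment over 1658). At an unadjusted p under 0.05 there were 3, against 6.82% of all, and DESeq2 called none. The paper lists more differentially expressed circRNA at the same limits, so the absence of calls holds for the tests used here. The log2 changes of the 33 circRNA had a median of 0.01, against 0.03 over all abundant circRNA, and ran between -1.11 and 1.44. The median SE over all abundant circRNA was 0.51 on the log2 scale, so a 1.5-fold change in a circRNA of middling level was hardly larger than its SE and not detectable in these libraries.

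The lowest of these values belonged to Kdm2a, a JmjC demethylase that binds unmethylated CpG DNA. Its circRNA of exons 2 to 12 was read 17, 1 and 9 times at 4-h post-hCG, against 26, 24 and 14 times at 0-h, without overlap after normalization (63.7 ± 51.4 normalized CPM at 4-h post-hCG and 139 ± 22.6 at 0-h, SD, n = 3 each). The log2 change was -1.11 ± 0.52 SE with an edgeR adjusted p of 0.693, and the single read in 4-h post-hCG replicate 2 lies at the limit of counting. The circRNA of exons 2 to 5, which starts with the same exon, was read 15, 11 and 11 times at 4-h post-hCG, against 13, 25 and 1 times at 0-h. Its groups overlapped, and the third abundant circRNA of Kdm2a, exons 19 to 20, averaged 55.8 ± 16.9 at 4-h post-hCG and 60.5 ± 31.1 at 0-h. The highest value belonged to Chd2 exons 8 to 9, read 16, 8 and 13 times at 4-h post-hCG, against 6, 7 and 2 times at 0-h (log2 1.44 ± 0.69 SE, edgeR adjusted p = 0.693). Groups that did not overlap were found for 2 circRNA that were higher at 4-h post-hCG (Chd2 exons 8 to 9 and Kdm4c exons 4 to 8) and 3 that were lower (Asxl2 exons 2 to 5, Whsc1 exons 3 to 10 and Kdm2a exons 2 to 12), where 11.5% of all abundant circRNA did not overlap (6.39% higher and 5.13% lower). Of these, Kdm4c and Whsc1 exons 3 to 10 were named after their values were seen.

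Summing all circRNA of a gene gave 34 chromatin genes with enough reads to test. None was called, against 1.27% of all genes tested (1.08% higher and 0.19% lower), and 3 had an unadjusted p under 0.05, against 7.79%. These 3 genes were chosen for this value. Kdm1a, the flavin-dependent lysine demethylase LSD1, had 66, 28 and 46 circular reads at 4-h post-hCG, against 39, 30 and 25 at 0-h (log2 0.64 ± 0.31 SE, edgeR adjusted p = 0.614). Mll5 (Kmt2e) had 24, 12 and 15 at 4-h post-hCG, against 7, 13 and 5 at 0-h (log2 1.09 ± 0.54 SE, edgeR adjusted p = 0.614). Kdm4b had 22, 18 and 27 at 4-h post-hCG, against 31, 28 and 53 at 0-h (log2 -0.71 ± 0.35 SE, edgeR adjusted p = 0.635). After normalization the groups did not overlap for Mll5 and overlapped for Kdm1a and Kdm4b.

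Chromatin genes with many reads differed in how far they spread them over different circRNA. The 22 genes with at least 100 back-splice reads gave a median of 21.5 different circRNA, and the highest of them took a median of 43.7% of the gene's reads. The 991 other genes with as many reads had a median of 14 circRNA and 49.6%, and the difference was not tested. Chd2 gave 65 circRNA, the third highest number of any gene, with 37.6% of its 458 reads on the highest. Nsd1 gave 41, Mll3 39 and Smarca1 35. Smarcc1, a core subunit of SWI/SNF, gave 32 circRNA and held 15.4% of its 182 reads on the highest, so that none was abundant. Setd3 and Kdm4b lay at the other end with 6 circRNA each, of which the highest took 98.6% and 84.9%. Whsc1, with the most reads of all chromatin genes, and Jmjd1c also held most of theirs on the highest, 88.0% and 82.0%. Setd3, Kdm4b, Smarcc1 and the other genes of this paragraph were named after their spread was seen or for their totals.

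**Figure D2:**
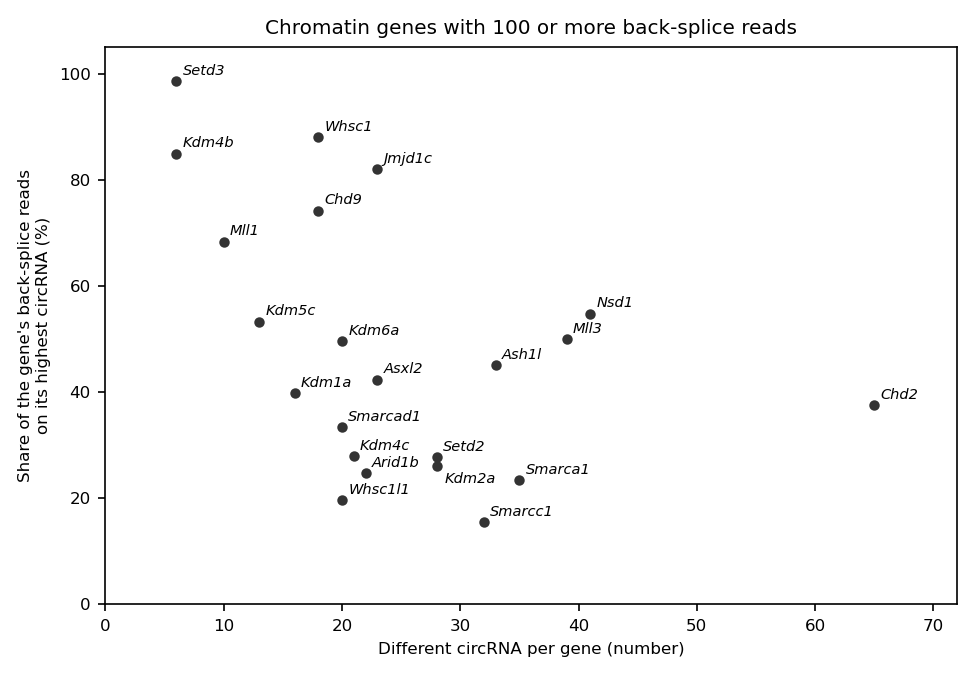
Number of different circRNA of a gene against the share of the gene's back-splice reads on its highest circRNA (%), for the 22 chromatin genes with at least 100 back-splice reads, 1 point per gene over all 6 libraries. Setd3 lies at the top with 98.6%, Smarcc1 at the bottom with 15.4%, and Chd2 to the right with 65 circRNA.

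The build of the 33 abundant circRNA was set beside that of the other 1625. The median spliced length was 601 nt (195 to 2869), against 519 nt, and 20 of them (60.6%) began with exon 2 or 3, against 53.1%. A single exon made up 5 of them (15.2%), against 7.08%, among them Chd9 exon 3 and exons of Ash1l. The start codon lay in 9 (27.3%), against 19.7%, and 16 (48.5%) had a spliced length that is a multiple of 3, against 36.5%. Their transcripts had more exons, with a median of 23 against 16. These shares describe the annotation and were not tested.

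Relative to the linear counts at their own junctions, chromatin circRNA were neither high nor low as a group. The median was 0.125 back-splice reads per linear count, against 0.134 over all abundant circRNA, and 16 of 33 lay above that median. The linear count behaves as a sum over both ends of the junction, so the value is not a ratio of molecules. The 3 highest were Chd9 exon 3 (0.921), Setd3 exons 2 to 6 (0.891) and Whsc1 exons 3 to 4 (0.676), at percentiles 96.7, 96.2 and 93.5 of all abundant circRNA. The 3 lowest were Nsd1 exons 3 to 4 (0.0240), Kdm2a exons 19 to 20 (0.0289) and Kdm2a exons 2 to 5 (0.0314), at percentiles 7.0, 8.5 and 9.2. Within Nsd1 and within Whsc1, circRNA with the same first exon had unlike values. Nsd1 exons 3 to 5 stood at 0.162 (percentile 56.6) against 0.0240 for exons 3 to 4. Whsc1 exons 3 to 4 stood at 0.676 against 0.0861 (percentile 33.2) for exons 3 to 10.

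The second comparison asked how the linear RNA of the same genes changed. Each gene was represented by the junction with its highest total linear count, and 76 of the 79 genes passed the filter on low counts (Asxl3, Chd7 and Hdac9 did not). Of these 76, 9 were higher and 2 were lower at 4-h post-hCG, 14.5% in all, where 25.8% of the 6949 genes tested were called (13% higher and 12.8% lower). A positive log2 change was found for 54 of 76 genes, against 49.4% of all genes tested, with a median of 0.10, against a median of -0.01 over all genes. Linear levels did not overlap between the groups for 17 genes that were higher and 6 that were lower at 4-h post-hCG, where 41.2% of all genes did not overlap (20.9% higher and 20.3% lower). Without 4-h post-hCG replicate 3, no chromatin gene was called lower.

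Both ISWI ATPases of the list, which space nucleosomes, were higher at 4-h post-hCG. Smarca1 (SNF2L) stood at 486, 386 and 364 normalized linear CPM at 4-h post-hCG, against 210, 228 and 135 at 0-h, without overlap (log2 1.11 ± 0.18 SE, edgeR adjusted p = 5.9e-05). Smarca5 (SNF2H) stood at 166, 167 and 159 at 4-h post-hCG, against 88.4, 113 and 51.2 at 0-h (log2 0.95 ± 0.21 SE, edgeR adjusted p = 0.0017). Smarca1 was higher at all 35 of its junctions with at least 60 linear counts, by log2 0.77 to 1.24, and Smarca5 at all 5 of its own, although junctions of a gene share linear reads. Smarcal1, an annealing helicase of the same SNF2 group, fell to 39.5, 52.0 and 33.3 at 4-h post-hCG, against 69.7, 69.4 and 64.0 at 0-h (log2 -0.69 ± 0.22 SE, edgeR adjusted p = 0.026). Its call was lost without 4-h post-hCG replicate 3 (log2 -0.57, adjusted p = 0.11). The other 12 SWI/SNF and related genes were not called. Smarca4 (BRG1), with the highest linear total of the family, averaged 476 ± 71.7 at 4-h post-hCG and 437 ± 43.7 at 0-h (log2 0.13 ± 0.15 SE).

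Among demethylases, 3 of 16 were higher and none was lower. Kdm1a stood at 492, 343 and 452 normalized linear CPM at 4-h post-hCG, against 235, 230 and 224 at 0-h, without overlap (log2 0.90 ± 0.16 SE, edgeR adjusted p = 0.00013). All 16 of its junctions were higher, by log2 0.53 to 1.00. Kdm3a, a JmjC demethylase, stood at 177, 137 and 187 at 4-h post-hCG, against 90.1, 94.5 and 118 at 0-h (log2 0.73 ± 0.18 SE, edgeR adjusted p = 0.0041), but at the junction with the most back-splice reads its value was log2 0.34 (adjusted p = 0.30). Kdm6b (JMJD3), which removes the methyl mark set by Polycomb, stood at 64.3, 52.8 and 49.3 at 4-h post-hCG, against 28.0, 36.2 and 33.8 at 0-h (log2 0.77 ± 0.24 SE, edgeR adjusted p = 0.022). Neither gene overlapped between the groups, but without 4-h post-hCG replicate 1 the adjusted p of Kdm6b was 0.11. Kdm2a, with the highest linear total of the family, averaged 536 ± 77.7 at 4-h post-hCG and 431 ± 4.62 at 0-h and was not called (log2 0.31 ± 0.15 SE, edgeR adjusted p = 0.12).

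Chd4 and Chd3, alternative ATPases of the NuRD complex, were called in opposite directions. Chd4 stood at 725, 677 and 721 normalized linear CPM at 4-h post-hCG, against 407, 451 and 528 at 0-h (log2 0.61 ± 0.14 SE, edgeR adjusted p = 0.0027). Chd3 stood at 189.7, 153 and 156 at 4-h post-hCG, against 246, 255 and 259.5 at 0-h (log2 -0.60 ± 0.15 SE, edgeR adjusted p = 0.0050). Neither gene overlapped between the groups, but both lay close to the 1.5-fold limit and passed below it under other settings. Chd4 had log2 0.53 without 0-h replicate 1 and 0.37 at the junction with the most back-splice reads, and Chd3 had log2 -0.55 and -0.57 without 4-h post-hCG replicates 2 and 3. The difference between Chd4 and Chd3 was not tested.

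Of the ARID proteins outside SWI/SNF, 2 of 5 were higher. Arid5b, a DNA-binding partner of the demethylase Phf2, stood at 142, 63.4 and 101 normalized linear CPM at 4-h post-hCG, against 45.9, 48.7 and 35.6 at 0-h, without overlap (log2 1.23 ± 0.25 SE, edgeR adjusted p = 0.00082). Arid3b, a DNA-binding protein of low level, stood at 17.8, 16.3 and 22.9 at 4-h post-hCG, against 5.10, 9.60 and 10.1 at 0-h (log2 1.17 ± 0.42 SE, edgeR adjusted p = 0.040). It lost its call without 4-h post-hCG replicate 3 (adjusted p = 0.13) and without 0-h replicate 1 (adjusted p = 0.16). Arid4a and Arid4b shared the highest circular total of the group, 86 reads each. Their linear levels averaged 28.8 ± 10.3 at 4-h post-hCG and 29.6 ± 3.00 at 0-h for Arid4a, and 49.4 ± 3.03 at 4-h post-hCG and 33.0 ± 8.10 at 0-h for Arid4b. Arid4b did not overlap between the groups and fell just short of the fold limit (1.498-fold, log2 0.58 ± 0.25 SE, edgeR adjusted p = 0.090). It was called without 0-h replicate 1 (log2 0.78).

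**Figure D3:**
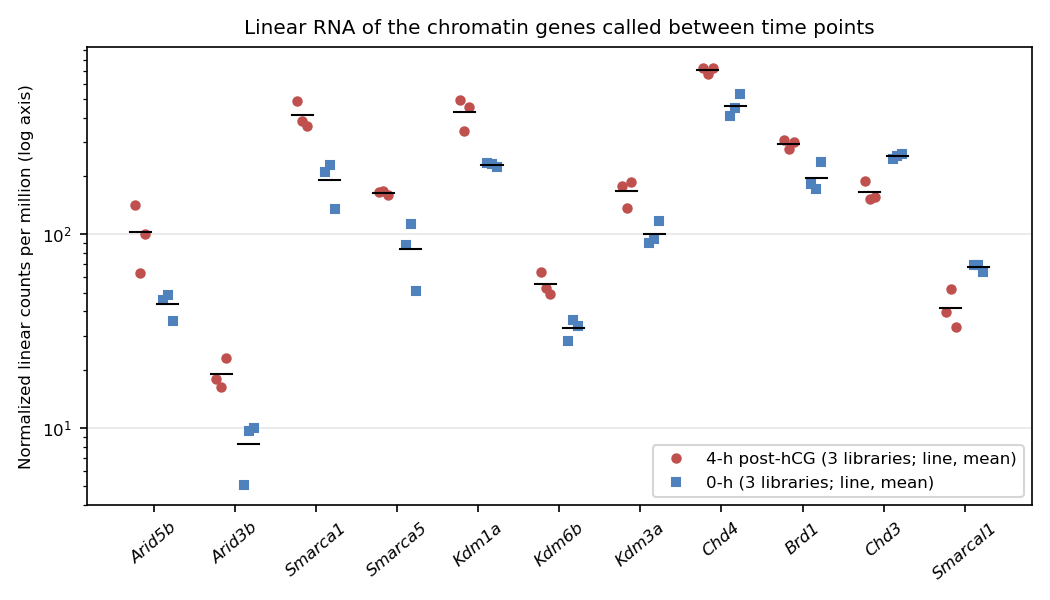
Normalized linear CPM on a log axis for the 11 chromatin genes called between the time points, ordered by log2 change, with circles for the 3 libraries at 4-h post-hCG to the left of squares for the 3 libraries at 0-h and a line at each mean. The first 9 genes are higher and the last 2, Chd3 and Smarcal1, are lower at 4-h post-hCG.

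Brd1, a bromodomain scaffold of histone acetyltransferase complexes, was the only call among 6 bromodomain genes in the main test. It stood at 309, 276 and 298 normalized linear CPM at 4-h post-hCG, against 181, 171 and 236 at 0-h (log2 0.59 ± 0.16 SE, edgeR adjusted p = 0.0076). At the 1.5-fold limit this call was lost in 5 of 11 other settings, in 4 of them by leaving out a library (4-h post-hCG replicate 1 or 3, or 0-h replicate 1 or 2), with log2 values of 0.50 to 0.58. Brd2, with the highest linear total of the family, averaged 519 ± 59.2 at 4-h post-hCG and 354 ± 21.7 at 0-h and passed the adjusted p but not the fold (log2 0.55 ± 0.14 SE, edgeR adjusted p = 0.0061). The same held for the demethylase Kdm5b (log2 0.55, edgeR adjusted p = 0.0078) and for Setd2 (log2 0.54, edgeR adjusted p = 0.032), 2 genes named after their values were seen. Brd2 was called without 4-h post-hCG replicate 1 or 3 or 0-h replicate 3 (log2 0.59 to 0.60). Brd3 was called lower with RLE factors (log2 -0.585), with DESeq2 (-0.59), and without 4-h post-hCG replicate 1 (-0.75) or 0-h replicate 1 (-0.80).

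The genes with methyltransferase names, Setd3 included, had no call in linear RNA among 17 genes in the main test, with a median log2 change of 0.14. Setd2 was called higher without 4-h post-hCG replicate 2 (log2 0.64) or replicate 3 (log2 0.60). Mll2 was called higher without 0-h replicate 3 (log2 0.62). Setd3, with the highest linear total of all chromatin genes, averaged 883 ± 117 normalized linear CPM at 4-h post-hCG and 853 ± 84.1 at 0-h (log2 0.05 ± 0.15 SE), and Whsc1 averaged 318 ± 45.6 at 4-h post-hCG and 306 ± 8.41 at 0-h (log2 0.06 ± 0.15 SE). No call was made among 7 deacetylases. Hdac4 had their highest linear total and averaged 270 ± 36.5 at 4-h post-hCG and 287 ± 44.4 at 0-h, and Hdac8, with their most circular reads, averaged 28.1 ± 5.68 at 4-h post-hCG and 27.5 ± 5.41 at 0-h. Of the Asxl genes, Asxl2 averaged 237 ± 44.8 at 4-h post-hCG and 228 ± 13.7 at 0-h, and Asxl1 averaged 289 ± 22.1 at 4-h post-hCG and 261 ± 40.8 at 0-h.

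The third comparison set the circular against the linear change at the same junctions. Both come from the same libraries. Of the 33 junctions with an abundant circRNA, 5 were called higher and none lower in linear RNA, where 20.3% of all such junctions were called (10.7% higher and 9.59% lower). They were Smarca1 exons 3 to 13, both Kdm1a junctions, which share linear reads, Chd1 exons 16 to 17 and Kdm4c exons 4 to 8. Kdm4c lay at the 1.5-fold limit (log2 0.59 ± 0.23 SE, edgeR adjusted p = 0.056) and was not called in the test per gene. At Smarca1 the linear count was 628, 475 and 317 at 4-h post-hCG, against 247, 309 and 148 at 0-h. The circRNA at this junction was read 20, 10 and 10 times at 4-h post-hCG, against 21, 18 and 9 times at 0-h. Its back-splice reads per linear count were thus 0.0282 over the 4-h post-hCG libraries and 0.0682 over the 0-h libraries, and the change of the ratio was log2 -1.22 ± 0.44 SE (edgeR adjusted p = 0.18).

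Most genes called in linear RNA gave few circular reads. Over all 6 libraries together the circular reads came to 2 for Kdm6b and for Chd3, 9 for Arid5b, 10 for Smarca5, 11 for Chd4, 16 for Arid3b, 21 for Smarcal1 and 27 for Kdm3a, all below what the test of sums per gene needed. In the other 3 genes the sums could be tested. Smarca1 had 103, 46 and 49 circular reads at 4-h post-hCG, against 95, 57 and 27 at 0-h (log2 0.22 ± 0.27 SE, edgeR adjusted p = 0.94), and Brd1 had 15, 14 and 10 at 4-h post-hCG, against 11, 12 and 12 at 0-h (log2 0.21 ± 0.53 SE, edgeR adjusted p = 0.99). Kdm1a is given above.

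No ratio of the 33 was called, against 2.53% of all abundant circRNA (0.965% higher and 1.57% lower), and 4 had an unadjusted p under 0.05, against 12.1%. Besides Smarca1 these were Kdm2a exons 2 to 12 (log2 -1.29 ± 0.49 SE, edgeR adjusted p = 0.20), Setd2 exon 12 (-1.31 ± 0.59) and Kdm6a exons 19 to 23 (-1.21 ± 0.58), all with fewer circular reads per linear count at 4-h post-hCG. Setd2 encodes a histone methyltransferase that travels with RNA polymerase, and Kdm6a a relative of Kdm6b. At the Kdm1a junctions the values of the circRNA were log2 0.24 ± 0.48 for exons 4 to 9 and 0.93 ± 0.60 for exons 3 to 9, beside linear changes of 0.73 ± 0.15 and 0.89 ± 0.15. The change of the ratio was log2 -0.48 ± 0.40 SE for exons 4 to 9 and 0.07 ± 0.48 SE for exons 3 to 9, and neither was called.

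**Figure D4:**
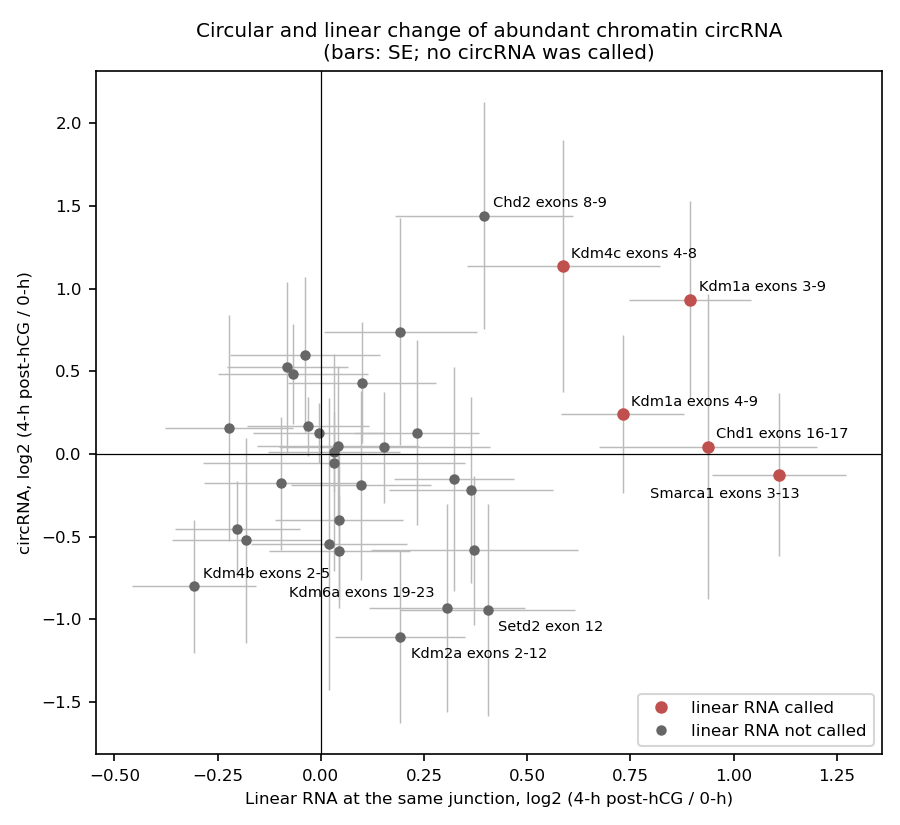
Log2 change between 4-h post-hCG and 0-h of the linear RNA (horizontal) and the circRNA (vertical) at the 33 junctions with an abundant chromatin circRNA, with bars of 1 SE. Red points are the 5 junctions whose linear RNA was called higher, and no circRNA was called. CircRNA have fewer reads than linear RNA, and the vertical bars are longer than the horizontal ones.

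Within Chd2 the linear change depended on the junction that was read, a pattern described after the values were seen. All 65 Chd2 junctions had more normalized linear counts at 4-h post-hCG, by log2 0.08 to 0.99. The 14 junctions whose circRNA begins with exons 2 to 4 had a median of 0.31, the 26 that begin with exons 6 to 11 had 0.50, the 13 that begin with exons 14 to 18 had 0.84, and the 12 that begin with exons 20 to 38 had 0.50. Linear counts were higher without overlap at 40 of the 65 junctions, where 20.9% of all genes, at 1 junction each, were. By stretch, in the same order, these were 6 of 14, 12 of 26, 12 of 13 and 10 of 12 junctions. The junction that stood for the gene in the test, exons 4 to 5, lies in the first of these stretches and was not called (log2 0.22 ± 0.17 SE, edgeR adjusted p = 0.34). The junctions share linear reads and are not independent, and this difference between stretches was not tested. For Chd1, a relative of Chd2, the call depended on the junction, while the difference between the junctions, which share linear reads, was not tested. Its value was log2 0.60 ± 0.29 SE (edgeR adjusted p = 0.14) at the junction with the highest linear total and 0.93 (adjusted p = 0.014) at exons 16 to 17, the junction with the most back-splice reads.

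**Figure D5:**
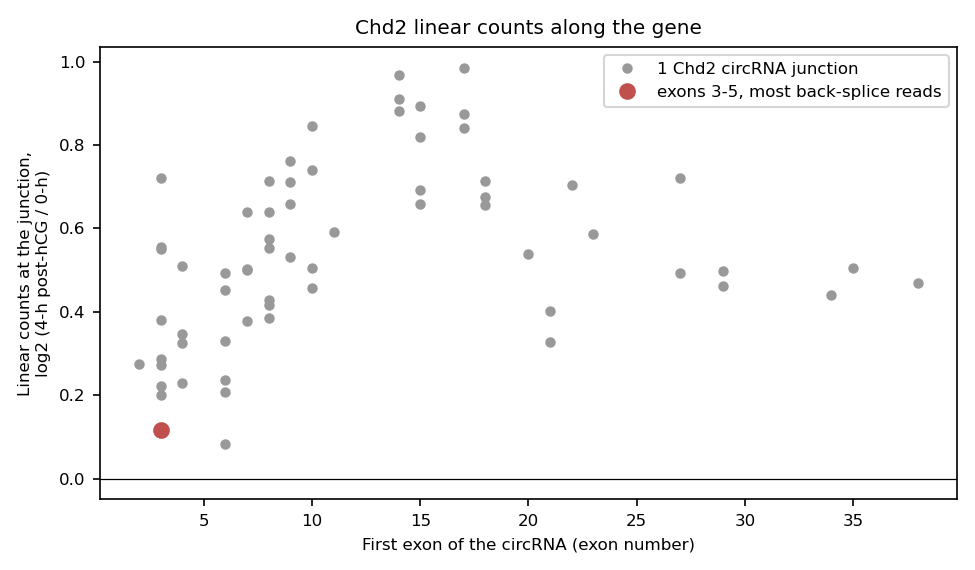
Log2 ratio of normalized linear counts (4-h post-hCG over 0-h) at the 65 Chd2 junctions against the number of the first exon of the circRNA, 1 point per junction. Every point lies above 0, and the large point is the junction of exons 3 to 5 with the most back-splice reads. The stretch of exons 14 to 18 has the highest median, 0.84. Some junctions that begin earlier lie above those that begin with exon 18, such as exons 10 to 16 (log2 0.84).

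Other chromatin genes, outside the names above, were given by a list of 101 genes of Polycomb, acetyltransferase, NuRD, ISWI, DNA methylation and related complexes. Of 78 tested in linear RNA, 6 were higher and 7 were lower at 4-h post-hCG (16.7%, against 25.8% of all genes), and none of their 51 abundant circRNA was called, against 1.21% of all abundant circRNA. Jarid2, a cofactor of Polycomb repressive complex 2, changed most. It stood at 600.0, 411 and 590 normalized linear CPM at 4-h post-hCG, against 106, 118 and 108 at 0-h (log2 2.26 ± 0.17 SE, edgeR adjusted p = 4.7e-10). Baz1a, a partner of Smarca5 in the ACF remodeling complex, averaged 107 ± 19.8 at 4-h post-hCG and 37.1 ± 5.62 at 0-h (log2 1.54 ± 0.22 SE, edgeR adjusted p = 1.0e-05). Phf2, the demethylase partner of Arid5b, averaged 191 ± 37.7 at 4-h post-hCG and 116 ± 11.5 at 0-h (log2 0.72 ± 0.18 SE).

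The largest decreases on that list were in Sirt3, a mitochondrial deacetylase, in Dpf3, a SWI/SNF subunit, and in Pcgf6, a Polycomb repressive complex 1 subunit. Dpf3 averaged 165 ± 29.2 normalized linear CPM at 4-h post-hCG and 388 ± 31.9 at 0-h (log2 -1.22 ± 0.16 SE, edgeR adjusted p = 3.1e-06). Sirt3 averaged 10.2 ± 8.42 at 4-h post-hCG and 27.5 ± 6.60 at 0-h (log2 -1.40 ± 0.45 SE, edgeR adjusted p = 0.024), and Pcgf6 averaged 21.3 ± 14.3 at 4-h post-hCG and 41.1 ± 1.21 at 0-h (log2 -1.02 ± 0.36 SE, edgeR adjusted p = 0.037). Ezh2, the catalytic subunit of Polycomb repressive complex 2, averaged 245 ± 12.2 at 4-h post-hCG and 244 ± 23.5 at 0-h in linear RNA. Its highest circRNA, at chr6:47576536-47577667, averaged 1888 ± 254 normalized CPM at 4-h post-hCG and 1726 ± 114 at 0-h and was not called (log2 0.13 ± 0.17 SE, edgeR adjusted p = 0.985). The circRNA of Smchd1 at chr17:71436706-71448846 averaged 124 ± 24.8 at 4-h post-hCG and 47.1 ± 13.3 at 0-h. It was not called here (log2 1.36 ± 0.55 SE, edgeR adjusted p = 0.48). The main test called 20 of the 1658 abundant circRNA in all. The paper lists the Smchd1 circRNA as differentially expressed, and its list is longer at the same fold and FDR limits. The reason for these differences was not tested.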

How the data were processed

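Total RNA of 6 libraries was sequenced. Per the methods, the authors used FastQC and cutadapt on the reads, TopHat and TopHat-Fusion against GRCm38, and CIRCexplorer for back splices. They deposited raw counts of back-splice reads and of linear RNA at each junction. Not given in the sources used here are the annotation and the way linear counts were made. A second deposited table holds normalized and regularized log values and the authors' own fold changes, p-values and FDR, and was not used.

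The deposited counts went unchanged into edgeR 4.0.16 (R 4.3.3), with quasi-likelihood fits, TMM factors, two-sided tests and Benjamini-Hochberg adjustment over everything tested. Calls needed an adjusted p up to 0.1 and a change of 1.5-fold or more, the thresholds of the methods. Circular library sizes were summed over junctions with a gene name, and the rest (15.6% to 18.9% of reads) was left out. Levels are normalized CPM on these sizes for circRNA, and on the summed linear counts of 1 junction per gene name for linear RNA. Linear genes and sums per gene were filtered with filterByExpr, circRNA at 100 CPM in at least 3 of 6 libraries. The ratio is the interaction over all 12 columns. It was fitted without a term for the mouse, so its SE and p-values ignore that circular and linear columns share mice. Exons and the sequences came from GENCODE M21 and GRCm38. An entry naming several genes was given to the chromatin gene among them (27 entries). SE values are the log2 change over the square root of F. Tests were tried on simulated counts. DESeq2 1.42.0 was an alternative. In Python 3.11.15, pandas 2.3.3 and matplotlib 3.10.9 made the tables and figures.

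The members, lists and tests were chosen with earlier results of these data known. Genes were named by a rule: those called, the 10 highest circRNA, genes with at least 3 abundant circRNA, the highest circular and linear totals of each family, the 3 highest and the 3 lowest in circular reads per linear count, and of the other chromatin genes the 3 largest calls each way and Ezh2. Others were named after their values were seen. P-values measure the spread between 3 mice per group.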

Additional observations from a re-analysis of the deposited data

How the results depend on the processing

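No circRNA, sum per gene or ratio of a chromatin gene was called in the main tests, and 0 were called higher or lower in any alternative (other factors, CPM minimums of 50 and 200, no filter, other library sizes, each library left out, DESeq2), except that DESeq2 called 1 ratio lower, that of Kdm2a exons 2 to 12 (log2 -1.27, adjusted p = 0.091). In linear RNA, leaving out 1 library gave 7 to 12 genes higher and 0 to 3 lower, against 9 and 2, and the count of lower genes was 0 without 4-h post-hCG replicate 3. Kdm1a, Smarca1, Smarca5 and Arid5b were called in all 11 alternatives, Kdm3a, Kdm6b and Smarcal1 in 10, Chd4, Chd3 and Arid3b in 9 and Brd1 in 6, each with 1 sign throughout. Other genes gained a call in at least 1 alternative. Arid4b, Brd2, Chd1, Kdm5b, Kdm6a, Mll2 and Setd2 did so as higher, and Brd3 and Kdm2b as lower. The cause of the lost and gained calls was not tested.

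The replicate numbers were not treated as pairs, since same-numbered libraries did not deviate together (correlations of -0.022 to 0.033 for circRNA and -0.069 to 0.032 for linear RNA). With the replicate block, 9 linear genes were higher and 2 lower, and 0 circRNA, sums per gene or ratios were called. With a block for the mouse, which keeps circular and linear columns of a mouse together, 0 ratios were called. The circular side was measured less precisely. The median SE was 0.51 on the log2 scale for abundant circRNA, against 0.18 for linear RNA at the same junctions and 0.21 for linear RNA per gene. The part of depth in this was not tested.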

Other observations

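Beside the 928 circRNA, the table lists 2833 back-splice junctions that name a chromatin gene and have no type. They held 915, 820 and 720 reads at 4-h post-hCG, against 1095, 996 and 917 at 0-h, which is 34.0% of all back-splice reads of these genes, with a mean of 1.93 reads per junction against 11.4 for the circRNA. They entered no comparison.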
